A study of Mus musculus with 6 samples.

Results

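The 7 genes of the mouse FOS and JUN family, Fos, Fosb, Fosl1, Fosl2, Jun, Junb and Jund, were measured by RNA-Seq in G1E-ER4 cells that had received either of 2 peptides, CHD4-APR or CTRL. They were taken by gene name from a table of 48709 genes, and the family was picked because Fosb and Fos had large rises with the CHD4-APR peptide in these same libraries. The differences between the peptides are therefore given for each member as a description with a standard error and no p-value. Counts of members past the edgeR threshold stand only beside the share of all genes past it, and nothing is read from them. These mouse cells, labelled as immature erythroblasts, are a line of red cell precursors that goes back to embryonic stem cells. Their added GATA-1 is held inactive by the ligand-binding domain of the estrogen receptor ESR1 that is joined to it, and tamoxifen, which binds that domain, releases it and lets the cells mature. The CHD4-APR peptide carries YWLLAGII, an aggregation-prone region of the chromatin remodeller CHD4, joined to the cell-entering Tat sequence. The CTRL peptide carries 7 alanines joined to Tat. Each group had 3 libraries of polyA RNA, and cells of both groups received 10 μM peptide for 2 h and then tamoxifen for another 28 h, so the comparison is between peptides in cells with active GATA-1. The tamoxifen concentration is given as 100 nM in the culture description and as 100 μM in the description of the experiment. Cells with no peptide or without tamoxifen were not analysed here. Nothing in the labels says that the libraries of a group came from separate cultures, so their spread, and the p-values given for other genes, may be technical.

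FOS and JUN proteins are basic leucine zipper (bZIP) transcription factors that bind DNA in pairs as AP-1. JUN proteins can pair with each other or with a FOS protein, whereas FOS proteins need a JUN partner. Fos, Fosb, Jun and Junb are immediate early genes, which are switched on quickly and briefly by growth factors and stress through SRF, ternary complex factors and CREB at their promoters, and their mRNAs decay fast. Jund is made more steadily. In blood cells AP-1 factors act in growth, stress responses and the choice between lineages.

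The promoters of Fos, Fosb, Jun and Junb, the immediate early genes of the family, are shown with the matches to a few motifs of AP-1, CREB and the TATA box. The bases are the 250 before the start site in RefSeq for build GRCm38.p6, written 5′ to 3′ on the strand of the gene. Capitals mark matches, on either strand, to the cAMP response element core TGACG, to the palindromic AP-1 and CREB site with 2 free bases, TGANNTCA, to the AP-1 site TGANTCA and to the TATA box TATAAA.
Fos, chr12:85473640-85473889, plus strand: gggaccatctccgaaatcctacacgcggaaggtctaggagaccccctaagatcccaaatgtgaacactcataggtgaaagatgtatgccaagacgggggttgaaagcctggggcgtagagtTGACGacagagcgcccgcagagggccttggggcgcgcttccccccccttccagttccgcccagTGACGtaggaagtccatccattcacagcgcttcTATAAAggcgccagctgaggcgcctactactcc
Fosb, chr7:19310046-19310295, minus strand: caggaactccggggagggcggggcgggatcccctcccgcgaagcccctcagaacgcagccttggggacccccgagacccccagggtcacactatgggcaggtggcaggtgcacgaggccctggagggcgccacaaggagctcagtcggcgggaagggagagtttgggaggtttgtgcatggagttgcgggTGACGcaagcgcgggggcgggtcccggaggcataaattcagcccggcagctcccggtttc
Jun, chr4:95052223-95052472, minus strand: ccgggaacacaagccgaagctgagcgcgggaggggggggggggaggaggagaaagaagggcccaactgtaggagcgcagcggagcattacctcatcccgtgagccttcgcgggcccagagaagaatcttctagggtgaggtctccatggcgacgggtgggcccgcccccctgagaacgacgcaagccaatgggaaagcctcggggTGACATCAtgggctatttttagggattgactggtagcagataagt
Junb, chr8:84978749-84978998, minus strand: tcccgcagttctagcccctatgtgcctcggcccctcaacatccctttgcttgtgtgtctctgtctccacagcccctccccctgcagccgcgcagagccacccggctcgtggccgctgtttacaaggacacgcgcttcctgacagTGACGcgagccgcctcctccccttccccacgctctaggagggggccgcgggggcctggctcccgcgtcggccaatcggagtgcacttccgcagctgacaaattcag
Matches were counted in the RefSeq windows that run from 250 bases before to 50 bases after the start, which were at hand for 6 members (all but Fosl1) and for 32851 promoters in all. TGACG was found in the promoters of Fos, Fosb and Junb, 3 of 6, against 20.81% of all promoters. In Fos it occurred at positions -129 and -66 from the start base and in Fosb at position -60. TATAAA occurred at -33 in Fos and at the RefSeq start base of Junb, which is 30 bases upstream of the start of Junb in GENCODE, and 13.62% of all promoters held it. TGANNTCA was found in Jun, where the match at -45 read TGACATCA, and in Jund, against 14.12% of all promoters. The RefSeq start of Jund lay 1210 bases from its GENCODE start. TGANTCA was in 0 of the 6 promoters and in 7.808% of all, and the CArG box bound by SRF was in 0 of the 6 and in 1.629% of all. Bases further than 250 before the start were not searched, so a site there would be missed. No match to any of these motifs overlapped a match to another. A match is a string of letters and was not tested for binding.

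The libraries held 41687482 to 49784177 counts each, and 12722 genes passed the filter on low counts and were tested. The erythroid identity given by the labels was checked on 11 markers, of which 11 were tested, and hemoglobin genes took 6.05% to 6.45% of all counts with the CTRL peptide and 5.11% to 5.44% with the CHD4-APR peptide. Of these markers 5 were lower and 2 were higher with the CHD4-APR peptide, where 17.8% and 20.4% of all tested genes were. Their summed level ran from 71185 to 76503 normalised CPM (counts per 1000000 after TMM scaling of the libraries) with the CTRL peptide. It ran from 60653 to 64727 with the CHD4-APR peptide. Markers of fibroblasts and of embryonic stem cells had 0 counts, and those of lymphocytes and mast cells summed to at most 0.604 normalised CPM. The 6 markers of monocytes, macrophages and neutrophils summed to 8.42 to 9.84 with the CTRL peptide and 6.81 to 8.25 with the CHD4-APR peptide. Mpo was at 0 counts, and 2 were tested. Csf1r was not called, and Cd68 fell from 4.91 to 3.76 normalised CPM (FDR 0.0116 in edgeR). The 5 megakaryocyte markers summed to 46.7 to 48.8 and 39.9 to 45.7, and of the 3 tested 1, Gp9, was lower (FDR 0.00986 in edgeR). With the hemoglobin genes taken out of the table and the library sizes, the log2 fold changes were 2.16 for Fos, 2.84 for Fosb and 0.50 for Jund, as in the full table.

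Levels were compared between members as normalised CPM divided by the kilobases of exon (RPKM). In bulk RNA, more RNA per cell and more cells with the RNA cannot be told apart. The family fell into 3 tiers. Junb and Jund were abundant, Fos, Fosb and Jun were near or below 2 RPKM, and Fosl1 and Fosl2 were at or close to 0 counts. With the CTRL peptide Junb came first at 110 ± 2.73 RPKM (SD, n = 3), ahead of Jund at 86.9 ± 13.2 RPKM. Fos followed at 0.431 ± 0.0614 RPKM, Fosb at 0.292 ± 0.0871 RPKM and Jun at 0.0879 ± 0.0396 RPKM. Junb and Jund did not overlap between their libraries, whereas the highest library of Fosb, at 0.391 RPKM, was above the lowest of Fos, at 0.381 RPKM. With the CHD4-APR peptide the order at the top changed when all exons gave the length, but not with the longest transcript (Junb 130.2 and Jund 122 RPKM). By all exons, with the bases that Jund shares with an antisense gene included in its length, Jund stood at 122 ± 1.77 RPKM and Junb at 102 ± 4.64 RPKM. Fosb at 2.07 ± 0.524 RPKM and Fos at 1.94 ± 0.343 RPKM overlapped, and Jun stayed below them at 0.190 ± 0.0467 RPKM. The order of Fos and Fosb also depends on the length used: with the longest transcript in place of all exons they were level with the CTRL peptide (0.480 and 0.481 RPKM), and Fosb was above Fos with the CHD4-APR peptide (3.42 and 2.16 RPKM).

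**Figure D1:**
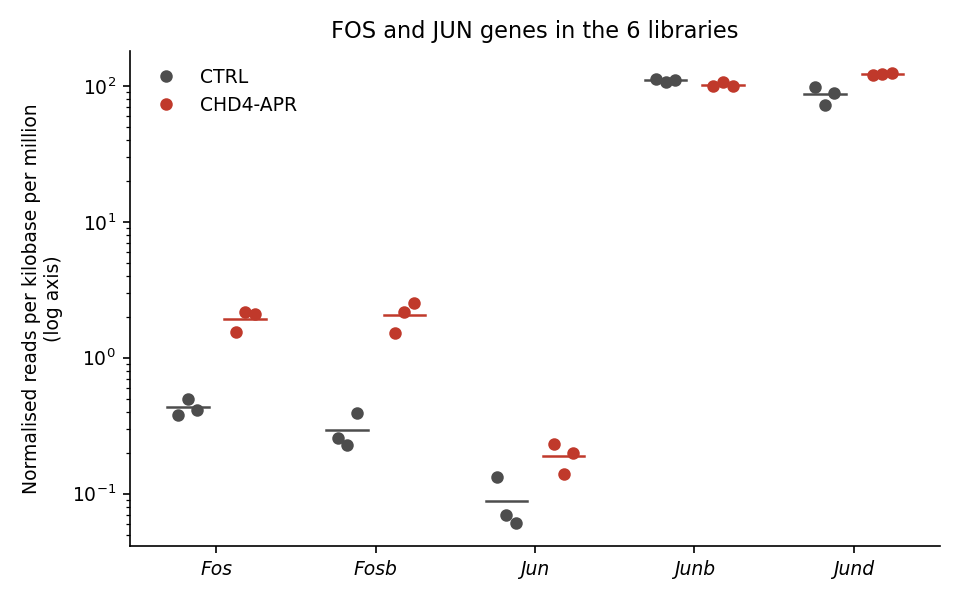
RPKM after TMM scaling (vertical axis, log scale) of the 5 members with enough counts, in each CTRL (grey) and CHD4-APR (red) library, with the group mean as a line. Junb and Jund lie near 100 RPKM in all libraries, and the CHD4-APR libraries of Fos, Fosb, Jun and Jund lie above all of their CTRL libraries.

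Of the 7 members, 5 passed the filter on low counts. Of these, 4 had an FDR under 0.05 in edgeR with a higher level in CHD4-APR libraries, against 20.4% of all tested genes (2601 of 12722), and 3 also reached 1.5-fold, against 3.48% (443). In edgeR 0 members were called lower, where the background was 17.8% (2270 genes), and 1 had an unadjusted p under 0.05 in that direction, while DESeq2 and limma-voom also called 0. Junb was past the threshold on the lower side with upper quartile scaling and when replicate 2 of either peptide was left out, and Jun was not past it on the higher side in 4 of the 6 omissions of a library. In all, 38.3% of genes were called in either direction, and the split of 2601 higher and 2270 lower became 2959 and 1474 with scaling by total counts and 1486 and 2056 with the length and GC correction. The same 4 members had no overlap between the groups, as did 49.9% of all tested genes.

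Among the FOS genes, Fosb had the largest difference. Fosb, which encodes a FOS protein and the short variant ΔFOSB known to accumulate under repeated stimulation, has 4 exons in its longest transcript on chromosome 7 from 19302696 to 19310051 on the minus strand of GRCm38. Its counts were 68, 70 and 101 with the CTRL peptide and 421, 579 and 750 with the CHD4-APR peptide. Scaled to library size these were 1.61, 1.42 and 2.44 normalised CPM against 9.42, 13.5 and 15.9 normalised CPM. The lowest CHD4-APR library was 3.86 times the highest CTRL library. The log2 fold change was 2.84 with a standard error of 0.19, or 7.18-fold, the 3rd highest of the 12722 genes tested. The spread was wide for both peptides, with a coefficient of variation of 29.9% and 25.3%, and leaving out 1 library at a time gave log2 fold changes from 2.67 to 3.10.

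Fos, the founding gene of the FOS group and a textbook immediate early gene, lies on chromosome 12 from 85473890 to 85477273 on the plus strand and has 4 exons. It had 38, 58 and 40 counts with the CTRL peptide and 162, 217 and 234 with the CHD4-APR peptide. The normalised levels were 0.897, 1.17 and 0.966 CPM against 3.62, 5.08 and 4.96 CPM, and the groups did not overlap. The log2 fold change was 2.16 (standard error 0.18), or 4.46-fold, and ranked 10 among the rises. CHD4-APR replicate 1 was the lowest of its group for both Fos and Fosb, and Fosb was highest in CHD4-APR replicate 3.

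Fosl1 and Fosl2 encode FRA1 and FRA2, FOS proteins without the strong activation domain of FOS. Fosl1, on chromosome 19 from 5447547 to 5455946, had 1, 0 and 2 counts with the CTRL peptide and 0, 0 and 2 with the CHD4-APR peptide. Fosl2, on chromosome 5 from 32135801 to 32157842, had 1 count in CTRL replicate 3, 1 in CHD4-APR replicate 1 and 0 in the other libraries. A library with 0 counts could still hold up to 3 counts, or 0.0603 to 0.0720 CPM depending on the library, and this limit covers counting error only. Every value of both genes was within it, so no difference could be detected at this depth and no fold change is given.

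Among the JUN genes, which each have a single exon, the abundant members differed less. Jund lies on chromosome 8 from 70698949 to 70700616 on the plus strand and encodes the JUN protein that is present in resting cells and tends to slow growth. It had 6967, 5984 and 6173 counts with the CTRL peptide and 8984, 8756 and 9764 with the CHD4-APR peptide. The normalised levels were 164, 121 and 149 CPM against 201, 205 and 207 CPM. All CHD4-APR libraries were above all CTRL libraries, by 1.22 times at the closest, and the CTRL libraries varied more (coefficient of variation 15.1% against 1.45%). The log2 fold change was 0.50 (standard error 0.075), or 1.41-fold, and fell to 0.38 without CTRL replicate 2, the lowest library. In reads this was a larger difference than that of any other member, 59.3 normalised CPM for Jund against -18.7 for Junb, 11.1 for Fosb and 3.54 for Fos.

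Junb encodes a JUN protein that weakens activation by JUN in many settings and lies on chromosome 8 from 84974484 to 84978718 on the minus strand. It had 11010, 12221 and 10570 counts with the CTRL peptide and 10239, 10594 and 10851 with the CHD4-APR peptide. These were 260, 248 and 255 normalised CPM against 229, 248 and 230, and the groups overlapped through CHD4-APR replicate 2. The log2 fold change was -0.11 (standard error 0.045), and it turned to 0.034 when a trend with exon length and GC content was removed from each library.

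Jun, the JUN protein with the strongest activating function, was rare. It lies on chromosome 4 from 95049034 to 95052222 on the minus strand and had 18, 11 and 8 counts with the CTRL peptide against 33, 19 and 30 with the CHD4-APR peptide. The normalised levels were 0.425, 0.223 and 0.193 CPM against 0.738, 0.445 and 0.635 CPM, so that the lowest CHD4-APR library was 1.05 times the highest CTRL library. The log2 fold change was 1.12 with a standard error of 0.37, the widest of the 5. Leaving out 1 library at a time gave log2 fold changes from 0.92, without CTRL replicate 3, to 1.53, without CTRL replicate 1.

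**Figure D2:**
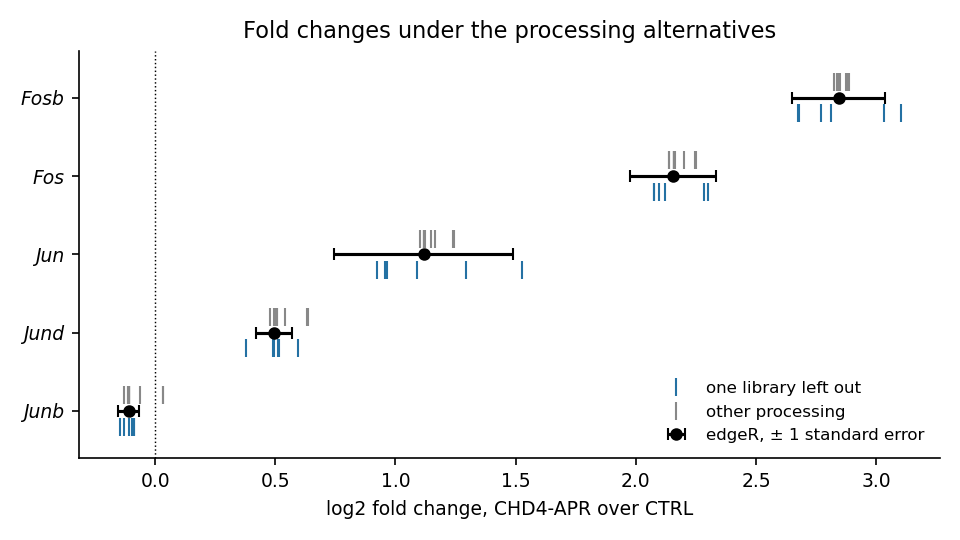
Log2 fold change of CHD4-APR over CTRL (horizontal axis) for the 5 members tested. Points are the edgeR values with 1 standard error, blue ticks the values with 1 library left out, and grey ticks those under the other tests, scalings, filters and corrections; the ticks of Fosb lie between 2.67 and 3.10, and only those of Junb reach both sides of 0.

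The makeup of the family followed from these levels. Junb and Jund together made up nearly all of its reads per kilobase, with Junb at 55.9% ± 3.19 (SD, n = 3) and Jund at 43.7% ± 3.22 with the CTRL peptide. With the CHD4-APR peptide Junb held 44.7% ± 1.09 and Jund 53.5% ± 1.06. The ratio of Jund to Junb was 0.873, 0.675 and 0.806 with the CTRL peptide and 1.21, 1.14 and 1.24 with the CHD4-APR peptide, without overlap. With the longest transcript as length the ratio stayed below 1 for both peptides (0.617 ± 0.0789 and 0.941 ± 0.0407), so the crossing of Junb and Jund depends on the length used. The order and the shares of the pair also rest on how reads were counted where other genes overlap them. That is not given in the sources used here. Jund shares bases with an antisense gene. Junb shares bases with Prdx2, which had 4830 normalised CPM with the CTRL peptide against 254 for Junb. What such reads add to either member was not tested. The FOS genes together took 0.306%, 0.401% and 0.411% of the family's reads per kilobase with the CTRL peptide. They took 1.37%, 1.84% and 2.04% with the CHD4-APR peptide. JUN genes thus held 97.96% to 99.69% of the reads per kilobase by all exons, and 97.45% to 99.65% by the longest transcript. The ratio of Fosb to Fos was 0.674, 0.455 and 0.951 against 0.979, 1.01 and 1.21. The groups came close without overlap (0.951 against 0.979), and the CTRL ratios rest on 38 to 58 counts of Fos. Summed over the family, the level was 212, 181 and 201 RPKM with the CTRL peptide and 223, 235 and 229 RPKM with the CHD4-APR peptide.

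**Figure D3:**
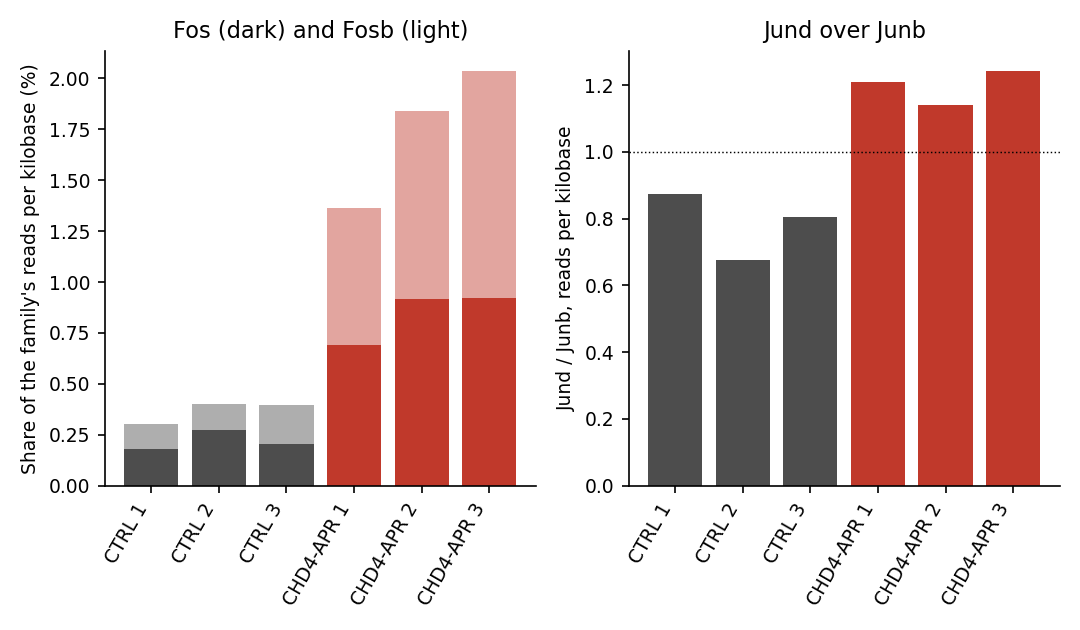
Left, share of Fos (dark) and Fosb (light) in the reads per kilobase of the FOS and JUN family, in percent, in the 3 CTRL (grey) and 3 CHD4-APR (red) libraries. Right, ratio of Jund to Junb in reads per kilobase, with a dotted line at 1; the CTRL libraries lie below 1 and the CHD4-APR libraries between 1.14 and 1.24.

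The genes with the profile most like that of Fosb and of Fos were sought over the 6 libraries among 9892 genes that averaged 1 log2 CPM or more, by the root mean square difference of log2 CPM taken relative to the CTRL mean. For Fosb these were Gm38393 (0.55), Fos (0.58), Zfp871 (0.87), Lnpep (0.90) and a gene known by the identifier ENSMUSG00000054178 (0.98). For Fos they were Gm38393 (0.32), Zfp871 (0.39), Lnpep (0.41), Klhl28 (0.49) and Gm43300 (0.50), and Fosb came at rank 13. This measure rests on the contrast that the family was chosen on, and Fos and Fosb reached the level limit through their CHD4-APR libraries, so the names are a description of genes with a rise of similar size. Jun was under the level limit.

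Genes that overlap or flank the members were compared next. The library kit does not mark strand, and how the counting treated reads shared by overlapping genes is not given in the sources used here. Jund shares 919 bases, 55.1% of its length, with the antisense gene Gm11175, which rose from 16.0 ± 1.64 to 21.5 ± 1.04 normalised CPM (log2 fold change 0.43, FDR 5.31e-04 in edgeR). These bases are the whole span of Gm11175, so none of its reads can be told apart from reads of Jund. Its rise is therefore not separate from that of Jund. Junb shares 351 bases with Prdx2, a peroxide-removing enzyme abundant in red cells, which fell from 4830 ± 164 to 3904 ± 95.2 normalised CPM (log2 fold change -0.31, FDR 5.32e-05 in edgeR). Jun shares 689 bases with the antisense gene Junos, which was at 0.591 ± 0.0322 and 0.503 ± 0.0711 normalised CPM (log2 fold change -0.23, FDR 0.569 in edgeR). Fosl1 shares 2767 bases with Ccdc85b, at 4.53 ± 0.715 and 3.76 ± 0.161 normalised CPM (FDR 0.118).

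The nearest tested genes on both sides of the members, 14 in all, comprised 1 that rose, 5 that fell and 8 that were not called, where 20.4% of all tested genes were higher and 17.8% lower. Beside Fos, Tmed10, a cargo receptor of the early secretory pathway, stood at 177 and 183 normalised CPM (FDR 0.487 in edgeR), and Erg28 at 74.4 and 70.4 (FDR 0.205). Both were called lower with the length and GC correction, at log2 fold changes of -0.15 and -0.16 (FDR 0.00667 and 0.00862 in edgeR). Beside Fosb, Rtn2 was at 0.506 and 0.540 normalised CPM (FDR 0.824) and Gm44698 at 0.586 and 0.498 (FDR 0.577). The single riser was Mysm1, a histone H2A deubiquitinase 69933 bases from Jun, from 35.4 to 52.8 normalised CPM (log2 fold change 0.58, FDR 4.81e-06 in edgeR), with a log2 fold change of 0.22 after the length and GC correction (FDR 0.00182). Gm12696, a processed pseudogene 2469205 bases away on the other side of Jun, had an FDR of 0.0925, and of 0.0424 with the correction. Beside Junb, Rnaseh2a fell with a log2 fold change of -0.26 (FDR 2.95e-04), or -0.17 with the correction, and Hook2 was not called (FDR 0.185). Beside Jund, Lsm4 fell with a log2 fold change of -0.28 (FDR 2.40e-04), a call lost when the length and GC trend was removed, and Pde4c was not called (FDR 0.573). Beside Fosl1 both AI837181 and Fibp fell (log2 fold changes -0.26 and -0.23). Beside Fosl2, Babam2 fell (log2 fold change -0.20) and Plb1 was not called (FDR 0.881). The calls of AI837181 and Babam2 were each lost under some alternatives, that of AI837181 with the length and GC correction (FDR 0.350) and that of Babam2 without CHD4-APR replicate 2 (FDR 0.101).

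**Figure D4:**
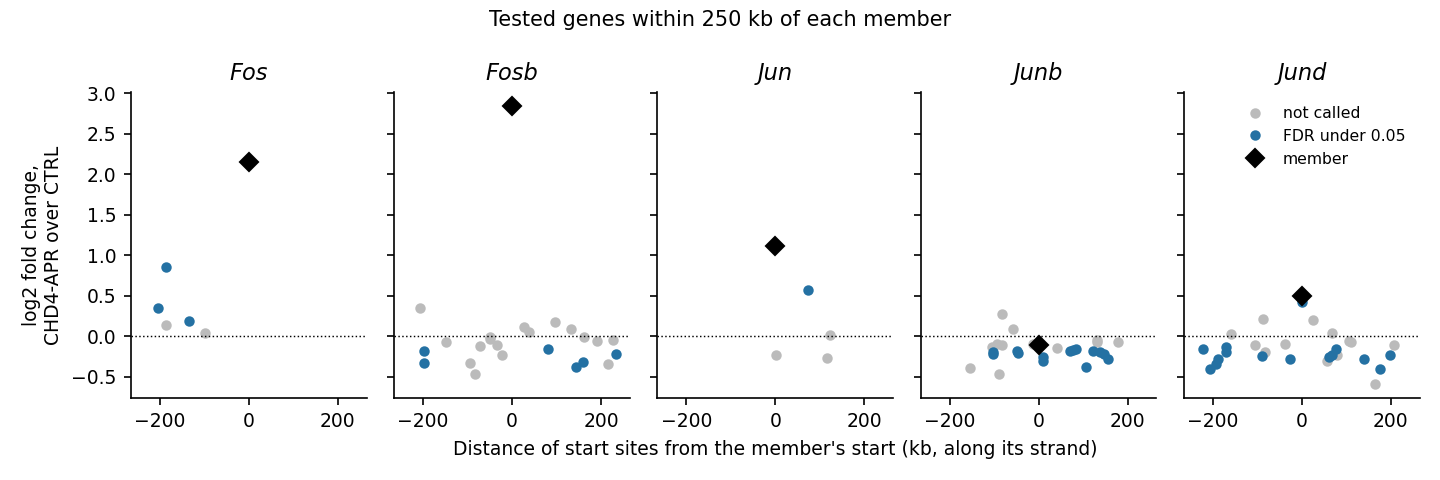
Log2 fold change of CHD4-APR over CTRL (vertical axis) of tested genes near the start of each of the 5 members tested. The horizontal axis gives the distance between starts, up to 250 kb, along the member's strand. Diamonds are the members, blue points genes with an FDR under 0.05 and grey points genes not called; the other genes within 250 kb of Fosb lie between log2 fold changes of -0.47 and 0.352.

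Within 250 kb of the start of Fosb, 23 other genes were tested, with log2 fold changes from -0.47 to 0.352 and a median of -0.11. In edgeR 6 were lower and 0 higher. The 5 genes tested near Fos ranged from 0.042 to 0.86, and 3 of them were higher. Near Jun 1 of 4 genes was higher and 0 lower (median log2 fold change -0.11), and the single gene near Fosl2 was not called. Near Fosl1, which had almost no counts, 13 of 23 genes were lower and 0 higher (median log2 fold change -0.18). Near Junb 14 of 26 genes were lower (median log2 fold change -0.18). Near Jund 14 of 28 were lower (median -0.20) and 1 was higher, the antisense Gm11175, which lies wholly within Jund. Over all tested genes 17.8% were lower and 20.4% higher. The median over all tested genes was -0.012.

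The pathways around AP-1 were described with 9 lists of 127 genes, of which 79 were tested. By edgeR 32 of them were higher and 12 lower with the CHD4-APR peptide (40.5% and 15.2%, against 20.4% and 17.8% of all genes), with a median log2 fold change of 0.048 against -0.012. With the length and GC correction 21 were higher and 9 lower. These lists were drawn up with results of these libraries known, and nothing particular to them is claimed.

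Upstream, the factors that act on the Fos promoter had 5 higher and 1 lower of 11 tested, with a median log2 fold change of 0.11. Mrtfb, an actin-regulated partner of SRF, rose without overlap between the groups, from 3.21, 3.36 and 3.55 to 5.44, 5.17 and 5.38 normalised CPM (log2 fold change 0.66, FDR 2.49e-04 in edgeR). Creb1, which binds the cAMP response element, went from 41.8 ± 1.45 to 54.8 ± 2.10 normalised CPM (log2 fold change 0.39, FDR 3.35e-05), but had a log2 fold change of -0.031 with the length and GC correction (FDR 0.697). Its relative Atf1 went from 86.8 to 104 normalised CPM (log2 fold change 0.26). The ternary complex factors Elk1 and Elk4 were also higher, at log2 fold changes of 0.17 and 0.22, but Elk1 lost its call in 7 of 17 alternatives. Elk4 had a log2 fold change of 0.13 with the length and GC correction (FDR 0.0491 in edgeR). Srf itself was not called, at 26.6 ± 1.25 and 27.2 ± 0.179 normalised CPM (FDR 0.743), although it was called higher with the length and GC correction (log2 fold change 0.15, FDR 0.0426). The CREB coactivator Crtc2 fell (log2 fold change -0.17), a call lost in 7 of 17 alternatives.

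The kinases that signal to these factors moved in both directions. Of 12 genes from RAS to RSK, 5 were higher and 3 lower, and with the length and GC correction 0 were higher and 4 lower. Braf, a RAF kinase, went from 68.9 ± 2.05 to 94.4 ± 4.06 normalised CPM (log2 fold change 0.45, FDR 4.23e-06 in edgeR), and its call was lost with that correction (log2 fold change 0.10, FDR 0.0606). Hras fell from 45.5 ± 1.27 to 34.9 ± 0.335 (log2 fold change -0.38, FDR 3.60e-05 in edgeR) and kept its call. Of 10 genes of the JNK and p38 pathways, which phosphorylate JUN and ATF2, 5 were higher and 2 lower, or 2 and 1 with the correction. Map3k1, a kinase at the top of the JNK pathway, rose from 8.36, 9.19 and 10.3 to 15.1, 15.0 and 14.1 normalised CPM (log2 fold change 0.67, FDR 2.29e-05 in edgeR).

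Among 15 phosphatases and feedback inhibitors of MAP kinases, 6 were tested, and 4 were higher and 0 lower, with a median log2 fold change of 0.39. With the length and GC correction 3 were higher and 0 lower. The count of lower genes was 0 also at an unadjusted p under 0.05 and in DESeq2 and limma-voom. Dusp1, itself an immediate early gene whose product inactivates p38, JNK and ERK, went from 12.7 ± 0.911 to 17.0 ± 0.630 normalised CPM (log2 fold change 0.42, FDR 4.38e-04 in edgeR). Dusp16, a phosphatase of JNK and p38, went from 33.7 ± 0.441 to 46.3 ± 0.760 (log2 fold change 0.46, FDR 6.53e-06). Spred1 and Spred2, which hold back RAS signalling, had log2 fold changes of 0.39 and 0.23, but Spred1 lost its call with the length and GC correction (log2 fold change 0.12, FDR 0.240). Of 9 mRNA decay factors and ubiquitin ligases that act on FOS and JUN products, 6 were higher and 1 lower. In DESeq2 these were 6 and 0, and with the length and GC correction 4 and 2. Zfp36l1, which speeds the decay of mRNAs with AU-rich elements, went from 44.8 ± 1.30 to 62.3 ± 1.87 normalised CPM (log2 fold change 0.48, FDR 3.68e-06 in edgeR), and Elavl1, which protects such mRNAs, from 93.5 ± 3.88 to 112 ± 1.11 (log2 fold change 0.26, FDR 3.36e-04). The call of Elavl1 was lost with the length and GC correction (log2 fold change 0.017, FDR 0.788). Itch, a ligase for JUN and JUNB, was called higher (log2 fold change 0.39, FDR 4.76e-04) but not with the length and GC correction (log2 fold change 0.077, FDR 0.317).

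Partners outside the family were described as bZIP factors and as MAF, CNC and BACH factors. Of the 7 bZIP partners 3 were tested, and Atf2 was the single one called, from 33.9 ± 2.60 to 43.4 ± 0.879 normalised CPM (log2 fold change 0.36, FDR 2.62e-04 in edgeR), a call lost with the length and GC correction (log2 fold change 0.034, FDR 0.675). In edgeR 0 of the 3 were lower, also at an unadjusted p under 0.05 and in DESeq2 and limma-voom. Atf3, Batf, Batf3 and Jdp2 did not pass the filter on low counts. Of 8 MAF, CNC and BACH factors tested, 2 were higher and 1 lower. Bach1, the heme-sensing repressor that pairs with small MAF proteins, went from 101 ± 5.74 to 132 ± 7.66 normalised CPM (log2 fold change 0.39, FDR 4.32e-05 in edgeR). Nfe2, the erythroid and megakaryocytic partner of the same MAF proteins, fell from 644 ± 19.9 to 572 ± 4.73 (log2 fold change -0.17, FDR 0.00368), or -0.10 with the length and GC correction.

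Downstream, 6 of 19 textbook AP-1 target genes were tested, and 0 were higher in edgeR at an FDR under 0.05, at an unadjusted p under 0.05, in DESeq2 and in limma-voom. The metallothioneins Mt1 and Mt2, metal-binding proteins, were lower. Mt1 had 855, 730 and 750 normalised CPM with the CTRL peptide and 653, 666 and 671 with the CHD4-APR peptide (log2 fold change -0.23, FDR 0.00266 in edgeR). The groups did not overlap. Mt2 had a log2 fold change of -0.24 (FDR 0.00176), and with the length and GC correction both calls were lost, at -0.088 and -0.018. Cd44, a cell adhesion receptor, was at 0.690 ± 0.155 and 0.979 ± 0.272 normalised CPM and was not called (FDR 0.171), and neither were Vim, Hmox1 and Ezr. The other 13 targets, among them Ccnd1, Plau, Timp1 and Mmp9, did not pass the filter.

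Of 24 other immediate early genes, 14 were tested, and 4 were higher and 2 lower, with a median log2 fold change of -0.0030. Egr1, a zinc finger factor induced through SRF as Fos is, rose from 4.98, 5.20 and 5.02 to 7.45, 7.81 and 9.23 normalised CPM (log2 fold change 0.69, FDR 1.01e-04 in edgeR). Klf6 rose from 51.8 ± 2.35 to 81.0 ± 5.31 (log2 fold change 0.65, FDR 8.87e-07). Klf10 was called at low counts, 0.997 ± 0.240 against 1.69 ± 0.267 (log2 fold change 0.77, FDR 0.0122), but not without CTRL replicate 2 or without CHD4-APR replicate 2 (FDR 0.0622 and 0.0656). Myc had a log2 fold change of 0.33 (FDR 0.0486) and lost its call in 7 of 17 alternatives, among them DESeq2, limma-voom and 4 of the 6 omissions of a library (FDR up to 0.197). Ier2 was not called, at 13.5 ± 1.47 and 11.6 ± 1.02 normalised CPM (FDR 0.0820), but was called lower without CHD4-APR replicate 1 (log2 fold change -0.28, FDR 0.0410). Btg2 was not called (FDR 0.532), and Ppp1r15a and Gadd45g fell with log2 fold changes of -0.19 and -0.32, calls that were lost with the length and GC correction (-0.061 and -0.13). Egr2, Egr3, Nr4a1, Arc and Npas4 did not pass the filter.

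**Figure D5:**
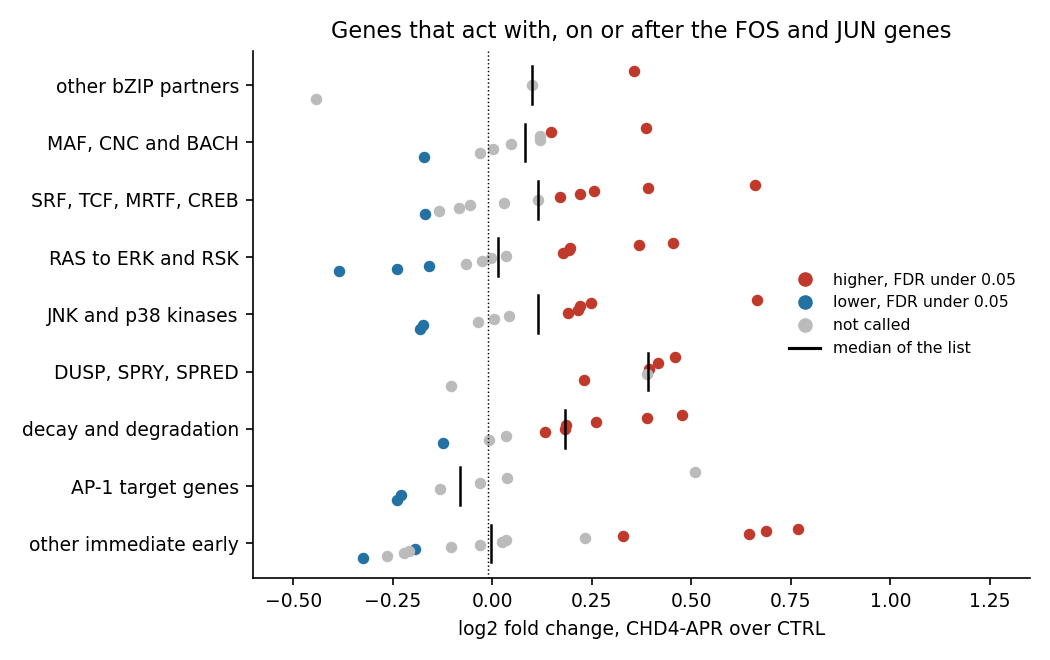
Log2 fold change of CHD4-APR over CTRL (horizontal axis) of each tested gene in the 9 lists (vertical axis), coloured by its call in edgeR, with the median of each list as a bar and that of all tested genes as a dotted line. The phosphatases and feedback inhibitors have the highest median (0.39), and the AP-1 target genes hold no gene called higher.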

How the data were processed

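RNA-Seq libraries of G1E-ER4 cells (3 CTRL and 3 CHD4-APR, grouped by title) were analysed from the deposited table of raw counts per Ensembl gene. Per the labels and the study's methods, the authors trimmed adaptors with Cutadapt, aligned with STAR 2.7.10a to GRCm38 and counted with featureCounts, without normalization. The table's other 2 columns of values belong to no sample listed and were left out. GENCODE M21 named and placed 48349 of the 48709 genes. The counts were compared in R 4.3.3 with edgeR 4.0.16 (filterByExpr, TMM, quasi-likelihood F-test, Benjamini-Hochberg FDR threshold 0.05, no replicate block), whereas the study used DESeq2. Normalised CPM used TMM scaling, RPKM the union of exons, and log2 CPM a prior count of 2. A standard error is the absolute log2 fold change over the root of F. Alternatives were DESeq2 1.42.0, limma-voom (limma 3.58.1), other scalings and filters, hemoglobin genes removed, length and GC offsets (mgcv 1.9.3), a replicate block and each library left out. The procedures were tested on simulated data. The pairing was checked by correlating deviations from the group means. In each pathway list the genes named are those past 1.5-fold and an FDR of 0.05 or else the 2 largest changes called; the nearest tested and the overlapping genes of each member and the 5 profiles nearest to Fosb and Fos were named too; further genes of the lists were named after their values were seen. The members, lists and motifs were chosen with earlier results of these data known.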

Additional observations from a re-analysis of the deposited data

How the results depend on the processing

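The 4871 genes called in all became 3542 to 5214 under the alternatives. The length and GC correction lowered the higher calls from 2601 to 1486, and to 1686 together with the replicate block, and scaling by total counts lowered the lower calls from 2270 to 1474. By direction, the higher and lower calls were 2601 and 2270 with TMM, 2419 and 2601 with upper quartile scaling, 2959 and 1474 with total counts, and 1486 and 2056 with the length and GC correction. Pathway genes called higher went from 32 to 21 with that correction. The counts of family members rest on the contrast they were chosen on and carry no support. Members called higher were 4, and 3, without Jun, when CTRL replicate 2 or 3 or CHD4-APR replicate 1 or 3 was left out or at least 10 counts were required in every library, which removed Jun from the test. Of all genes, 2175 to 2613 were called higher when 1 library was left out, and 2597 with the filter of 10 counts. Members called lower were 0, and 1, Junb, with upper quartile scaling, without CTRL replicate 2 or without CHD4-APR replicate 2. Leaving out 1 library at a time gave 0 to 1, where 1528 to 2315 of all genes were called lower. Flanking genes that were not called with all libraries and TMM changed sign: Tmed10 to -0.15 with the length and GC correction and to -0.15 with the replicate block added, past the FDR threshold in both, Rtn2 to -0.11 when CTRL replicate 2 was left out (range -0.11 to 0.50 over the 6 omissions) and to -0.017 when CHD4-APR replicate 3 was, and Plb1 to 0.0060, 0.081 and 0.043 when CTRL replicate 2 or 3 or CHD4-APR replicate 1 was (range -0.34 to 0.081). The causes were not tested. Shares of Junb and Jund moved to 61.7% and 37.9% with the CTRL peptide and to 50.4% and 47.4% with the CHD4-APR peptide when the longest transcript gave the length, and those of Fosb to 0.210% and 1.32%.

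With the replicate number as a replicate block, 5214 genes were called, 2739 higher and 2475 lower, with 4 members higher and 0 lower and 33 and 16 pathway genes, among the latter Ier2 (log2 fold change -0.21, FDR 0.0340). Same-numbered libraries correlated at 0.143, 0.227 and -0.121 in their deviations, and CHD4-APR replicate 3 correlated best with CTRL replicate 1, so the numbers were not taken as pairs. Depth limits Fosl1, Fosl2 and Jun, which had at most 33 counts in a library.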
